A study of Mus musculus with 15 samples.

Results

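The 10 genes described here were the 2 insulin-like growth factors, Igf1 and Igf2, their receptors Igf1r and Igf2r, and the binding proteins Igfbp2, Igfbp3, Igfbp4, Igfbp5, Igfbp6 and Igfbp7, taken by name from the 24982 gene symbols counted by RNA-Seq in whole aortas. All 10 passed the filter on low counts and were among the 14121 genes tested. The aortas came from 15 wild-type male C57BL/6 mice aged 10 months, 5 per group, and every mouse received aldosterone by osmotic minipump (200 µg per kg per day) with 0.9% NaCl and 0.2% KCl in the drinking water (Aldo-salt) for 7 days. Control mice were sham-operated, orchiectomized mice had lost their testes 2 weeks before Aldo-salt, and the third group was orchiectomized and carried a pellet of dihydrotestosterone (DHT), a potent androgen that is not converted to estrogen. Because all the mice received Aldo-salt and no sham-operated mouse received DHT, the comparisons speak to androgen status under Aldo-salt, and because the libraries were made from whole aortas, fewer cells of a type and less RNA per cell cannot be told apart.

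IGF-1 and IGF-2 are small secreted hormones related to insulin. Both bind the IGF-1 receptor, a tyrosine kinase that signals growth and survival through PI3K, Akt and the MAP kinases, whereas the IGF-2 receptor, which also carries mannose 6-phosphate-tagged enzymes to the lysosome, clears IGF-2 from the cell surface. The binding proteins hold the growth factors outside cells, set how much reaches the receptor, and are cut by dedicated proteases, and in the vessel wall smooth muscle cells and fibroblasts both make and respond to members of the system.

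The libraries held between 8268957 and 13816864 reads assigned to genes. In all 15, the defining smooth muscle markers Myh11, Acta2, Tagln, Cnn1 and Smtn were above 0, with a summed level of 9923 to 23381 CPM (counts scaled to the size of the library), so the label of the tissue held. Orchiectomized replicate 2 stood apart, with the highest summed level of the mesothelial markers (356 CPM) and of the B cell markers (150 CPM) of any library. It also had the lowest summed level of the smooth muscle markers (9923 CPM). Results of edgeR that rest on this library are given with and without it.

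Igfbp2, Igfbp3, Igfbp4 and Igfbp5 are the genes on which the comparisons below turn, and the 250 bases before the transcription start of each are shown as the stretch in which an androgen receptor site could lie close to the start. The sequences are RefSeq's on GRCm38.p6, 5′ to 3′ on the strand of the gene. The positions are chr1:72824230-72824479 (plus strand) for Igfbp2, chr11:7213924-7214173 (minus strand) for Igfbp3, chr11:99040994-99041243 (plus strand) for Igfbp4 and chr1:72874866-72875115 (minus strand) for Igfbp5. Capitals mark AGAACA, the androgen receptor half-site, which was searched on both strands. They also mark TATAAA, a form of the TATA box, which was searched on the strand of the gene.
Igfbp2: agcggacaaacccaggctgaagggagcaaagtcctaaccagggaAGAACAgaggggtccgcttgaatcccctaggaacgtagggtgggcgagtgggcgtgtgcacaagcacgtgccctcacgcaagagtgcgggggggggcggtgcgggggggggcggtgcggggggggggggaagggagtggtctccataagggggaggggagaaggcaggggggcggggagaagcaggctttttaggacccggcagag
Igfbp3: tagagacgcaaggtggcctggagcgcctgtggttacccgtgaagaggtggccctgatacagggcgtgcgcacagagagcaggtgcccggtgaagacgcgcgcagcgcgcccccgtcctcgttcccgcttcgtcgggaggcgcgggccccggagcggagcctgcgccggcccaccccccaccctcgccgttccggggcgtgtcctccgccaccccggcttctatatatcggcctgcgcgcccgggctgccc
Igfbp4: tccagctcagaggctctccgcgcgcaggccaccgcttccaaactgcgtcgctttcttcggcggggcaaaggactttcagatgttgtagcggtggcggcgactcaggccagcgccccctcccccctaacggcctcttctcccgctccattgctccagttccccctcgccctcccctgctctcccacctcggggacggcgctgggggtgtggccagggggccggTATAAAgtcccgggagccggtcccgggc
Igfbp5: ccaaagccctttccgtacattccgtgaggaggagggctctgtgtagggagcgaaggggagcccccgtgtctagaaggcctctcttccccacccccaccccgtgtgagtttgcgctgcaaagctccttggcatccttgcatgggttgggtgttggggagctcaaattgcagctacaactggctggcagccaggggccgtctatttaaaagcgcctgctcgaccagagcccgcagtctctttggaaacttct
One half-site lay 206 bases before the start of Igfbp2, and none lay in the other 3 windows, against 16.2% of 27025 promoter windows of this length that held at least 1. Among the members not shown, only Igf2 held a half-site, 85 bases before its start. The log2 fold change of Igf2 with DHT against orchiectomy was 0.05. The string TATAAA occurred once in the 4 windows, 28 bases before the start of Igfbp4, and was present in 8.12% of all windows. Only this exact string was searched, so other forms of the TATA box were not marked. The full palindromic element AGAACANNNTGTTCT, which contains the half-site, was in none of the 4 windows and in 1 of the 27025. These are matches of letters only, and no binding was measured.

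Igfbp2 (chromosome 1, 72824503 to 72852474, plus strand) and Igfbp5 (chromosome 1, 72857932 to 72874884, minus strand) are neighbors that face each other with 5458 bases between their ends on mm10, and Igfbp3 and Igfbp4 are both on chromosome 11 but 91827321 bases apart. Exons of Igf2 overlap the antisense RNA Igf2os and exons of Igfbp7 overlap Polr2b, which encodes a subunit of RNA polymerase II. Whether reads were counted by strand is not given in the sources used here, so reads in those overlaps cannot be assigned with certainty.

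Binding protein transcripts far outnumbered those of the ligands. Measured per exon length, as CPM divided by the kilobases of exon (RPKM), Igfbp7 stood first with 1342 ± 243 (SD, n = 15), followed by Igfbp4 with 178 ± 41.8, Igfbp5 with 128 ± 39.8, Igfbp6 with 118 ± 29.9 and Igfbp2 with 80.5 ± 32.6 RPKM. The lowest Igfbp7 library, at 908 RPKM, was above the highest Igfbp4 library, at 261 RPKM, whereas the ranges of Igfbp4, Igfbp5, Igfbp6 and Igfbp2 overlapped from each to the next. Igf2r came next with 16.0 ± 1.70 RPKM, below every Igfbp2 value and above every Igf1 value, with 1 Igfbp3 value, 31.6 RPKM in orchiectomized replicate 2, above its range. Igf1 at 8.06 ± 2.28, Igfbp3 at 7.66 ± 6.84, Igf1r at 7.28 ± 1.45 and Igf2 at 5.62 ± 0.744 RPKM closed the order, with ranges that overlapped one another. Lengths were those of all annotated exons merged, which places genes with long or many untranslated exons, such as Igf1r and Igf1, lower than a count of molecules would.

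The genes also differed in how far they varied among the 15 aortas. The highest and lowest CPM of Igf2r were within a factor of 1.42 and those of Igf2 within 1.55, whereas Igfbp2 spanned a factor of 5.87 and Igfbp3 a factor of 11.7, the last through orchiectomized replicate 2. The level of each gene in each aorta is shown in the plot of CPM by group.

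**Figure D1:**
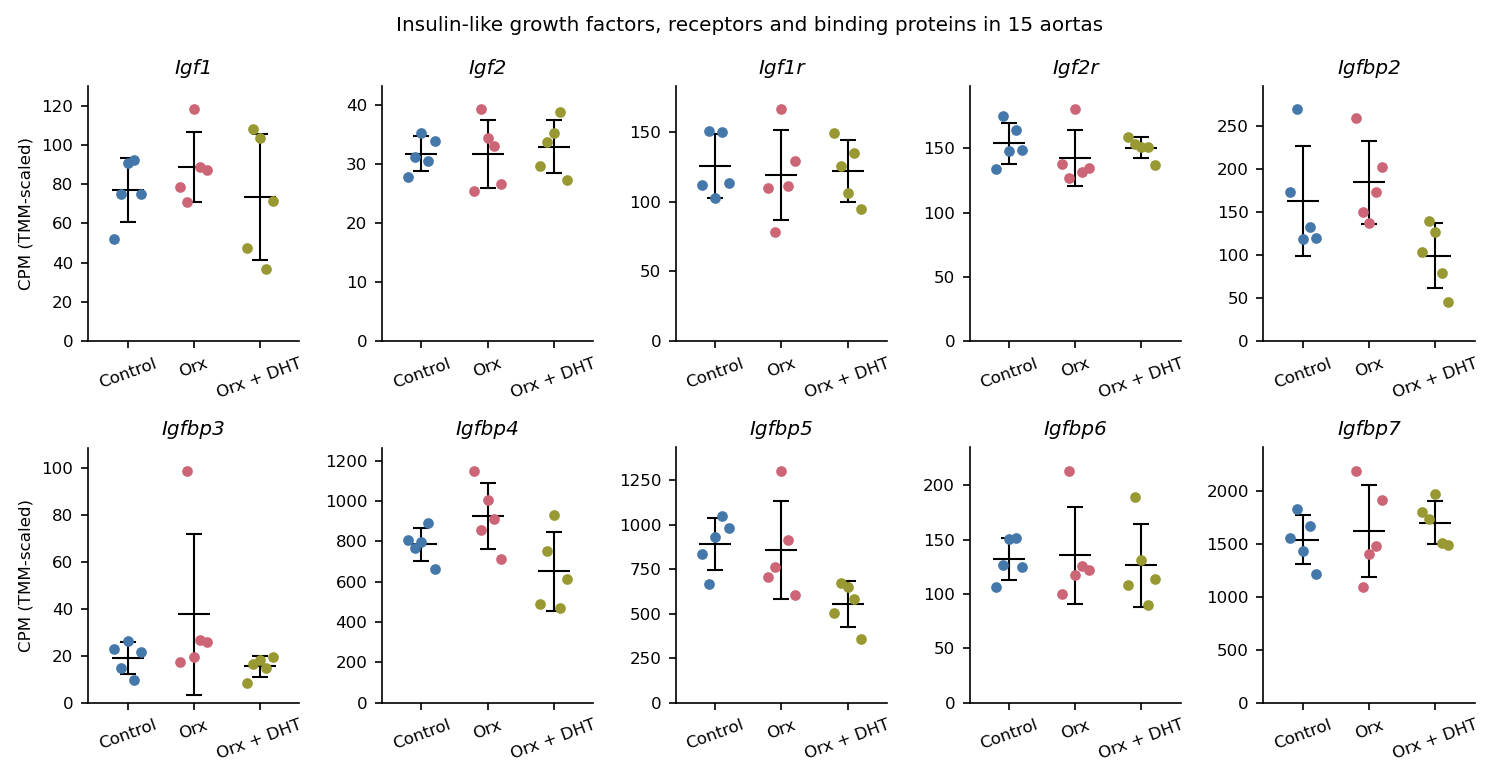
Expression of the 10 genes in CPM (y axis, linear, from 0) in control, orchiectomized (Orx) and DHT-treated orchiectomized (Orx + DHT) mice; points are the 5 aortas of a group in replicate order and bars are mean ± SD. Igfbp2 and Igfbp5 had their lowest means with DHT (99.2 and 552 CPM), 1 orchiectomized aorta had 98.8 CPM of Igfbp3, and for Igf2 and Igfbp7 the 3 groups lay over one another.

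To examine the effect of orchiectomy under Aldo-salt, orchiectomized mice were compared with control mice, and Igfbp3 was the 1 member whose 95% interval excluded no change, through a single aorta. At the threshold the study used, an unadjusted P under 0.01 (edgeR quasi-likelihood test), 0 of the 10 genes passed, where 3.22% of all tested genes did. At 0.05, 1 of the 10 (Igfbp3) passed, where 12.0% of all genes did. The count under 0.05 was 0 with only the 2 groups compared, the replicate block or limma. It was also 0 without control replicates 2, 4 or 5, orchiectomized replicate 2, or DHT replicates 3, 4 or 5. Without orchiectomized replicate 3 it was 2. After Benjamini-Hochberg adjustment 0 of the 10 and 0% of all genes passed 0.05 with edgeR, and DESeq2 likewise called 0 of the 10 after adjustment, where it called 0.942% of the genes to which it gave an adjusted P. In 0 of the 10 did the values of the groups stand clear of each other, against 1.51% of all genes. The median log2 fold change was 0.06 over the 10 genes and 0.04 over all genes.

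The ligands and receptors were close to even between control and orchiectomized mice. Igf1 was 77.1 ± 16.2 CPM in control and 88.8 ± 18.0 CPM in orchiectomized mice (SD, n = 5 each), with a 95% interval of the log2 fold change from -0.36 to 0.76. Igf2 was 31.7 ± 2.94 and 31.8 ± 5.75 CPM, with an interval from -0.28 to 0.28. Igf1r and Igf2r had intervals from -0.47 to 0.31 and from -0.34 to 0.11, so a doubling or halving of either receptor lay outside what these aortas allow.

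Igfbp3, the main carrier of IGFs in blood, had the largest fold change of the family after orchiectomy. It measured 22.6, 14.8, 26.3, 9.56 and 21.4 CPM in the control aortas and 17.4, 98.8, 19.3, 26.7 and 25.7 CPM in the orchiectomized ones. The groups overlapped, and a single aorta, orchiectomized replicate 2, was more than 3 times above every other library of either group. The log2 fold change of 0.99 ± 0.44 (SE; 95% interval 0.05 to 1.93; edgeR adjusted P = 0.401) became 0.23 (adjusted P = 0.863) without that library, which also carried the highest mesothelial and B cell marker levels. B cell markers were higher across the orchiectomized group, at 6.35 to 150 CPM beside 3.65 to 8.13 CPM in control mice, with 5 of 5 higher at an unadjusted P under 0.01, as were 3 of the 4 T cell markers that could be tested (4.31 to 42.2 beside 2.81 to 10.8 CPM). At the same threshold 2 of 5 skeletal muscle, 1 of 5 adipocyte and 1 of 5 brown adipocyte markers were lower. The part of these markers in the Igfbp3 value, and in that of Mtor given below, was not tested.

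To examine the effect of restoring an androgen, DHT-treated orchiectomized mice were compared with untreated orchiectomized mice, which are the same orchiectomized mice as above. Of the 6 binding proteins, 4 had lower levels with DHT with 95% intervals that excluded no change (Igfbp2, Igfbp3, Igfbp4 and Igfbp5), whereas Igfbp6, Igfbp7, both ligands and both receptors had intervals that spanned 0. At an unadjusted P under 0.01, 1 of the 10 genes passed, Igfbp2, where 9.72% of all tested genes passed. At the less strict 0.05, 4 of the 10 were lower, where 13.9% of all genes were lower and 21.2% moved in either direction. None of the 10 reached an adjusted P under 0.05 with edgeR, where 4.72% of all genes did. DESeq2 put 2 of the 10 there, Igfbp2 at an adjusted P of 0.0468 and Igfbp3 at 0.0481, where it put 9.24% of the genes to which it gave one. DESeq2 was run on all libraries only, so its Igfbp3 value includes orchiectomized replicate 2. The values of no gene stood clear between the groups, as they did for 6.43% of all genes. The median log2 fold change was -0.19 over the 10 genes and -0.02 over all genes. Without orchiectomized replicate 2 there were 3 genes lower at 0.05 in place of 4, Igfbp3 being the one lost, and Igfbp2 was still the 1 gene under 0.01. The count was also 3 without orchiectomized replicate 1 or DHT replicate 4, which lost Igfbp4, and without orchiectomized replicate 3, which lost Igfbp5, and it was 2 with limma, Igfbp2 and Igfbp3.

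Igfbp2, a binding protein with a preference for IGF-2, fell with DHT. The orchiectomized aortas held 259, 150, 137, 173 and 202 CPM and the DHT-treated ones 104, 140, 127, 79.5 and 45.9 CPM. Only the highest DHT-treated aorta, at 140 CPM, rose above the lowest orchiectomized aorta, at 137 CPM. The log2 fold change was -0.89 ± 0.30 (95% interval -1.52 to -0.26; edgeR adjusted P = 0.0952). Leaving out 1 library kept the log2 fold change between -1.05 and -0.68 with an adjusted P of 0.0721 to 0.204, and in 9 of the 15 such fits the gene no longer passed 0.01, namely without control replicates 1, 3 and 4, orchiectomized replicates 1, 4 and 5, or DHT replicates 1, 4 and 5.

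Igfbp5, the most conserved of the binding proteins, which is laid down in extracellular matrix, lies next to Igfbp2 in the genome. Over all libraries the log2 CPM of Igfbp2 and Igfbp5 had a Pearson r of 0.43, which was -0.013 with the group means taken out. Igfbp5 levels were 707, 760, 1302, 913 and 602 CPM in orchiectomized mice and 504, 673, 649, 580 and 356 CPM in DHT-treated mice. DHT replicates 1, 4 and 5 lay below every orchiectomized aorta, and replicates 2 and 3 lay above orchiectomized replicate 5 only. The log2 fold change was -0.63 ± 0.22 (edgeR adjusted P = 0.103), and it was -0.40 without orchiectomized replicate 3, the aorta with 1302 CPM.

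Igfbp4, which mostly withholds IGFs from the receptor, was 1151, 857, 1006, 912 and 711 CPM in orchiectomized aortas and 488, 754, 933, 469 and 612 CPM in DHT-treated aortas. The DHT-treated group was itself divided, with replicates 2 and 3 inside the orchiectomized range and replicates 1, 4 and 5 under all of it. The log2 fold change was -0.51 ± 0.19 (edgeR adjusted P = 0.124). With limma, which gave libraries quality weights, the log2 fold changes were smaller, at -0.31 for Igfbp4, -0.36 for Igfbp5 and -0.74 for Igfbp3. Igfbp3 was 8.47, 16.5, 18.1, 14.6 and 19.4 CPM with DHT, and its log2 fold change of -1.29 ± 0.45 (adjusted P = 0.108) shrank to -0.53 (adjusted P = 0.306) without orchiectomized replicate 2.

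The rest of the family was near even in this comparison. Igfbp7, a distant relative of the classical binding proteins with low affinity for IGFs, was 1621 ± 435 CPM in orchiectomized and 1703 ± 203 CPM in DHT-treated mice, with a 95% interval of the log2 fold change from -0.31 to 0.45. Igfbp6, which prefers IGF-2, was 136 ± 44.5 and 126 ± 38.4 CPM, with an interval from -0.56 to 0.36. Igf1 was 88.8 ± 18.0 and 73.5 ± 32.2 CPM (interval -0.83 to 0.29), and the DHT-treated aortas fell into a wide range, from 36.8 CPM in replicate 4 to 108 CPM in replicate 2. For Igf2, Igf1r and Igf2r the intervals ran from -0.23 to 0.33, from -0.36 to 0.43 and from -0.15 to 0.30.

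**Figure D2:**
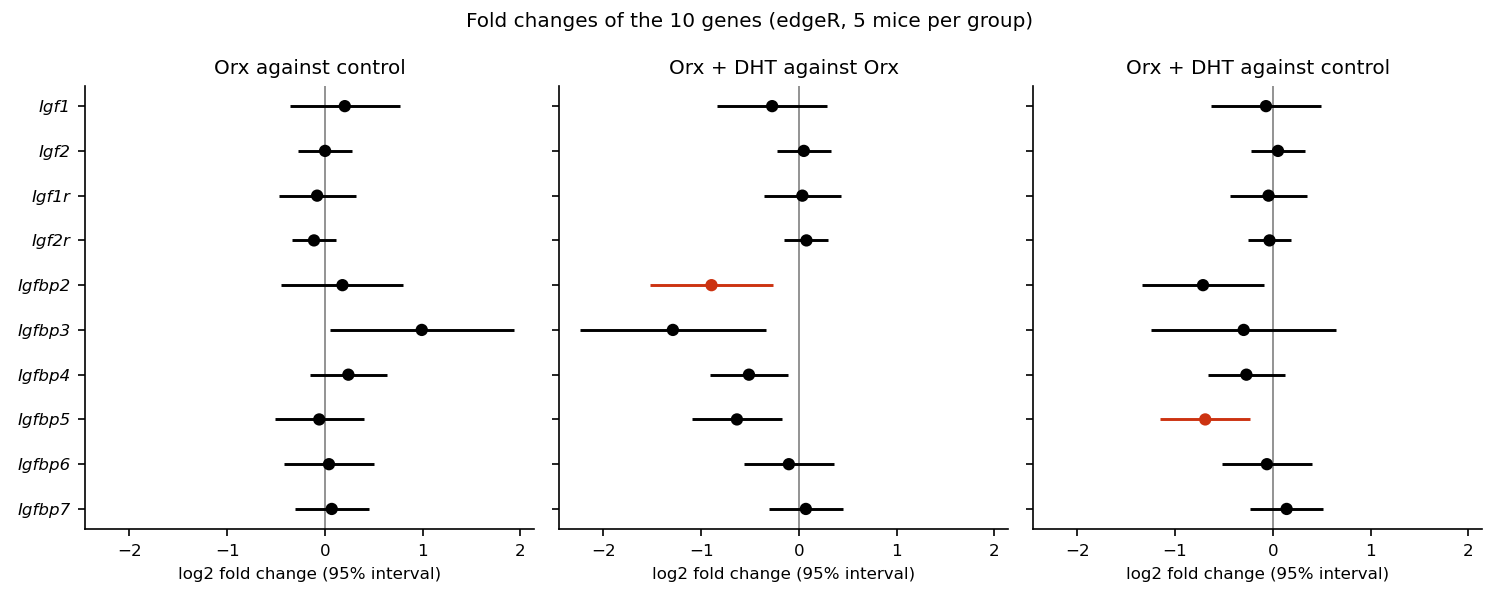
Log2 fold change (x axis) of each gene (y axis) in the 3 comparisons of control, orchiectomized (Orx) and DHT-treated orchiectomized (Orx + DHT) mice, from edgeR with 5 mice per group; points are estimates, lines are 95% intervals and red marks an unadjusted P under 0.01. Igfbp2 with DHT against orchiectomy (-0.89) and Igfbp5 with DHT against control (-0.69) are red, and the intervals of the ligands and receptors span 0 in every panel.

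Other transcripts of the aorta wall moved in the same comparison, and their part in the binding protein values was not tested. The summed fibroblast markers Pdgfra, Dcn, Lum, Col1a1 and Pi16 were 2352 to 3769 CPM in orchiectomized and 1733 to 2752 CPM in DHT-treated mice, with 1 of the 5 lower at an unadjusted P under 0.01. The summed smooth muscle markers were 9923 to 19469 CPM and 18673 to 23381 CPM, with 0 of the 5 past that threshold. The 5 mesothelial markers, Upk3b, Msln, Lrrn4, Krt19 and Wt1, were all lower with DHT, at 43.5 to 356 CPM in orchiectomized mice and 7.18 to 22.2 CPM in DHT-treated mice. None of these 15 markers was at 0 in any library. The summed endothelial markers Pecam1, Cdh5, Vwf, Kdr and Tie1 were 778 to 1134 CPM in orchiectomized and 537 to 732 CPM in DHT-treated mice, with 2 of the 5 lower at that threshold. Immune markers were lower with DHT as well. All 5 B cell markers passed the threshold, with a summed level of 6.35 to 150 CPM in orchiectomized and 2.65 to 11.0 CPM in DHT-treated mice, as did all 4 T cell markers that could be tested (of 5), at 4.31 to 42.2 and 1.37 to 4.86 CPM, and 2 of the 5 macrophage markers, at 260 to 400 and 131 to 292 CPM. Of the brown adipocyte markers 1 of the 5 was lower, while the median log2 fold change of the 5 was 0.60. Their summed level was 903 to 1979 CPM in orchiectomized and 1364 to 4066 CPM in DHT-treated mice. Of the adipocyte markers 0 of the 5 passed the threshold, with a median log2 fold change of 0.53. Skeletal muscle markers had 2 of the 5 higher, at 7.70 to 181 CPM in orchiectomized and 60.4 to 346 CPM in DHT-treated mice.

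To compare orchiectomized mice that received DHT with mice that kept their testes, the DHT-treated group was set against the control group, and it shares its mice with the comparisons above. In this comparison 1 of the 10 genes, Igfbp5, passed an unadjusted P of 0.01, where 3.53% of all genes passed. At 0.05, 2 of the 10 passed, Igfbp2 and Igfbp5, where 11.8% of all genes did. The count under 0.05 was 1 without control replicate 2, DHT replicate 4 or DHT replicate 5, and 3 without DHT replicate 3. After adjustment 0 of the 10 passed 0.05 with edgeR and with DESeq2, where 0.262% of all genes did with edgeR and 1.69% of those with an adjusted P did with DESeq2. The groups overlapped for every one of the 10 genes, against 3.58% of all genes whose groups did not. The median log2 fold change was -0.06 over the 10 genes and -0.0029 over all genes.

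Igfbp5 was 837, 667, 927, 1050 and 978 CPM in control aortas, set against the 356 to 673 CPM of the DHT-treated ones. Apart from control replicate 2, at 667 CPM, every control aorta lay above every DHT-treated aorta. The log2 fold change was -0.69 ± 0.22 (95% interval -1.15 to -0.23; edgeR adjusted P = 0.243), and it stayed between -0.78 and -0.57 with any 1 library left out, with an adjusted P of 0.160 to 0.559. The gene no longer passed 0.01 in 6 of those 15 fits, which were the ones without control replicates 3, 4 and 5 or DHT replicates 1, 4 and 5.

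Igfbp2 was 173, 269, 118, 133 and 120 CPM in control aortas, of which the last 3 lay within the DHT-treated range. The log2 fold change against control was -0.71 ± 0.30 (edgeR adjusted P = 0.373), and it was -0.46 without control replicate 2. Igfbp3 and Igfbp4 had log2 fold changes of -0.30 ± 0.45 and -0.27 ± 0.18, with intervals that spanned 0, and leaving out 1 library moved them over a range of -0.47 (without control replicate 4) to -0.14 (without DHT replicate 1) and of -0.44 (without DHT replicate 3) to -0.18 (without DHT replicate 4). Fibroblast marker levels were 2436 to 3620 CPM in control mice, with 2 of the 5 markers lower in DHT-treated mice at an unadjusted P under 0.01, and 4 of the 5 mesothelial markers (33.1 to 87.7 CPM in control mice) and 2 of the 5 endothelial markers (665 to 1003 CPM in control mice) were lower as well, as was 1 of the 5 brown adipocyte markers. The part of these markers in the Igfbp5 and Igfbp2 values was not tested. In a test for any difference among the 3 groups, 0 of the 10 genes passed an unadjusted P of 0.01, where 7.34% of all genes passed.

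The makeup of the binding protein pool was described per exon length in each library. Igfbp7 made up 70.1 ± 2.50% of binding protein RPKM in control, 68.7 ± 7.11% in orchiectomized and 77.6 ± 3.12% in DHT-treated mice. The other 5 binding proteins summed to 539 ± 34.1 RPKM in control, 586 ± 59.2 in orchiectomized and 412 ± 102 RPKM in DHT-treated mice. The DHT-treated aortas split, with 3 between 331 and 350 RPKM and 2 at 512 and 534 RPKM, inside the range of the other groups. A ratio of the reads of 2 genes in 1 library does not depend on scaling between libraries, and Igfbp7 had 1.80 ± 0.576 reads per Igfbp5 read in control, 2.09 ± 0.986 in orchiectomized and 3.20 ± 0.683 in DHT-treated aortas. These sums and ratios were chosen after the values of the genes were seen and are given as a description, with no test.

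**Figure D3:**
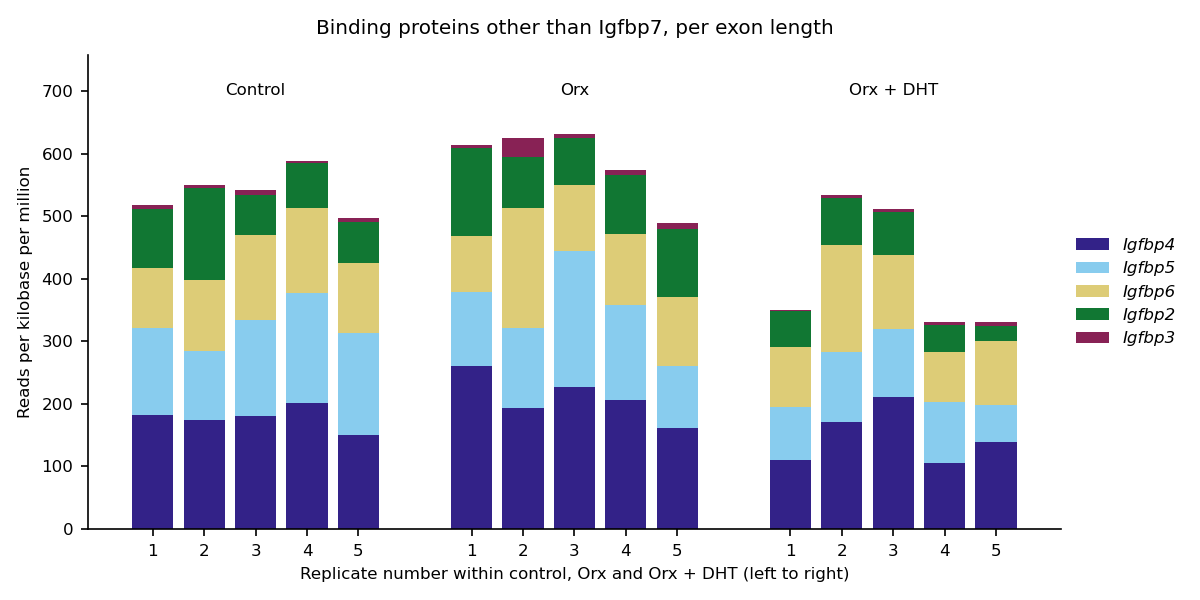
Stacked RPKM (y axis, linear, from 0) of the binding proteins other than Igfbp7 in each of the 15 libraries (x axis, by replicate number within control, orchiectomized and DHT-treated orchiectomized mice). DHT replicates 1, 4 and 5 had the lowest totals (331 to 350 RPKM), and the Igfbp3 band is widest in orchiectomized replicate 2.

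For the 2 members called in a comparison, the tested genes most alike over the 15 libraries were found by Pearson correlation of log2 CPM. Genes most like Igfbp2 included Arf4 (r = 0.88), a small GTPase of the secretory pathway, and Tiprl (0.86). With the group means taken out, its nearest genes were Hspa1b (0.89), an inducible heat shock protein, Tnfrsf12a (0.88), the TWEAK receptor, and Arf4 (0.87). Igfbp5 was most like Abca8a (0.89), a lipid transporter, Adam17 (0.88), a protease that sheds membrane proteins, and Itga11 (0.88), a collagen-binding integrin of fibroblasts. With the group means taken out, Gm38396 (0.87), Abca8a (0.85) and Cacna1g (0.84), a T-type calcium channel, came first. These are the highest of 14121 values over libraries that share depth and tissue makeup, so they carry no P value.

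Igfbp7, chosen after its values were seen, followed smooth muscle genes from aorta to aorta. With the group means taken out, the genes nearest to it were Dstn (r = 0.97), an actin-severing protein, Pdlim7 (0.97) and Acta2 (0.97), smooth muscle actin. This likeness was within groups, and the summed smooth muscle markers and Igfbp7 were both lowest in orchiectomized replicate 2, at 9923 and 1098 CPM.

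The wider IGF pathway was read from 5 lists with 51 genes, of which 44 were expressed highly enough to test. At an unadjusted P under 0.01, 1 gene was lower after orchiectomy, 2 were lower with DHT against orchiectomy, and 1 was higher with DHT against control, where 3.22%, 9.72% and 3.53% of all genes passed in either direction, so the shares of the 44 were not above those of all genes. None passed 0.05 after adjustment with edgeR, whereas DESeq2 put 0, 3 (Grb10, Igfals and Stc1) and 1 (H19) of the 44 there, where it put 0.942%, 9.24% and 1.69% of the genes with an adjusted P. The median log2 fold changes over the 44 genes were -0.04, 0.05 and -0.00075, beside 0.04, -0.02 and -0.0029 over all genes. Among those below the filter, Igfbp1 had 0 reads in every library.

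Among the family's other genes, Igfals, which encodes the subunit that joins IGF and IGFBP-3 into a stable circulating complex, fell with DHT. It measured 4.52, 6.90, 2.88, 7.77 and 5.13 CPM in orchiectomized and 2.57, 3.15, 1.15, 3.09 and 3.72 CPM in DHT-treated mice, a low level of 9 to 113 reads. All but orchiectomized replicate 3 lay above the DHT-treated values, and the log2 fold change was -0.99 ± 0.31 (adjusted P = 0.0850 with edgeR and 0.0375 with DESeq2). It no longer passed 0.01 without orchiectomized replicates 2, 4 or 5 or DHT replicates 1, 3 or 4.

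Of the 26 receptor signaling genes, 1 was lower at 0.01 in each of the comparisons with orchiectomized mice and 0 with DHT against control, beside 3.22%, 9.72% and 3.53% of all genes. Grb10, an adaptor that dampens signaling from the IGF-1 and insulin receptors, was 63.9, 62.4, 94.9, 72.6 and 71.2 CPM in orchiectomized and 53.4, 56.8, 54.2, 41.8 and 58.6 CPM in DHT-treated mice. The groups did not overlap, as was the case for 1 of the 44 pathway genes and 6.43% of all genes, and the log2 fold change was -0.46 ± 0.13 (adjusted P = 0.0510 with edgeR and 0.0218 with DESeq2), which no longer passed 0.01 without orchiectomized replicate 3 or DHT replicate 4. Mtor, the growth-regulating kinase, was 146, 115, 197, 89.3 and 130 CPM in control and 69.0, 53.5, 90.4, 96.6 and 83.7 CPM in orchiectomized mice. Control replicate 4 lay inside the orchiectomized range, and the log2 fold change of -0.78 ± 0.26 (edgeR adjusted P = 0.308) no longer passed 0.01 in 8 of the 15 fits with 1 library left out, namely those without control replicates 1, 3 and 5, orchiectomized replicates 1, 2, 3 and 5, or DHT replicate 1.

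H19, a noncoding RNA that is imprinted together with Igf2 and lies 72623 bases from it on chromosome 7, rose with DHT against control, where Igf2 had a log2 fold change of 0.05 with a 95% interval from -0.22 to 0.33. H19 was 9.69, 4.12, 5.11, 4.32 and 4.47 CPM in control, 6.35, 11.9, 9.79, 8.80 and 11.7 CPM in orchiectomized, and 4.10, 14.2, 23.8, 29.9 and 21.2 CPM in DHT-treated aortas. These rest on 44 to 242 reads per library. Exons of H19 overlap Mir675, which is also among the counted symbols, so reads in that overlap cannot be assigned with certainty. All the DHT-treated aortas but replicate 1 were above every control, and replicate 1 was at the level of the lowest control. Against control the log2 fold change was 1.74 ± 0.41 (adjusted P = 0.0929 with edgeR and 0.00363 with DESeq2), it was under 0.01 without adjustment whichever library was left out, and its adjusted P then ran from 0.0207 to 0.290. Its adjusted P was 0.322 with the replicate number as a block, the highest of the alternatives. H19 reads per Igf2 read were 0.180 ± 0.0945 in control, 0.309 ± 0.0761 in orchiectomized and 0.557 ± 0.275 in DHT-treated mice. Skeletal muscle, a tissue in which H19 is known to be expressed, left marker levels of 28.4 to 450 CPM in control and 60.4 to 346 CPM in DHT-treated libraries, with the highest level in control replicate 1 and 242 CPM in DHT replicate 1, and its part in the H19 value was not tested.

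The 6 genes for binding protein proteases and their inhibitors held no gene under 0.01 in any comparison, beside the shares of all genes just given. A pair of them, named here after their values were seen, were under 0.05 with DHT against orchiectomy in opposite directions, where 21.2% of all genes were under that level. Pappa, the protease that cuts IGFBP-4, was 3.28 ± 1.05 CPM in orchiectomized and 1.91 ± 0.392 CPM in DHT-treated mice (log2 fold change -0.78 ± 0.28, edgeR adjusted P = 0.116). Stc1, stanniocalcin-1, was 4.60 ± 2.02 and 8.41 ± 1.04 CPM (log2 fold change 0.87 ± 0.31, edgeR adjusted P = 0.113), and its groups overlapped through orchiectomized replicate 2 at 7.70 CPM. Without that library the log2 fold change of Stc1 was 1.15 (edgeR adjusted P = 0.0493). Both were also under 0.05 with DHT against control, where 11.8% of all genes were, with log2 fold changes of -0.71 ± 0.28 for Pappa and 0.68 ± 0.31 for Stc1 (edgeR adjusted P = 0.353 and 0.397). The growth hormone axis had 0 of 6 testable genes under 0.01 in any comparison, beside 3.22%, 9.72% and 3.53% of all genes. A pair of its genes, also named after their values were seen, were under 0.05, Socs2 and Ghr after orchiectomy, where 12.0% of all genes were, and Ghr also with DHT against control, where 11.8% were. Socs2, an inhibitor of growth hormone signaling, was 15.1 to 26.5 CPM in control and 26.7 to 58.4 CPM in orchiectomized mice, so these groups did not overlap, as was the case for 1.51% of all genes. Its log2 fold change of 0.64 ± 0.23 (edgeR adjusted P = 0.329) was 0.38 (adjusted P = 0.666) without orchiectomized replicate 2, which had the 58.4 CPM. Ghr, the growth hormone receptor, was 201 ± 50.5 CPM in control, 149 ± 20.4 CPM in orchiectomized and 151 ± 22.0 CPM in DHT-treated mice, with log2 fold changes against control of -0.43 ± 0.16 and -0.42 ± 0.16 (edgeR adjusted P = 0.342 and 0.363).

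**Figure D4:**
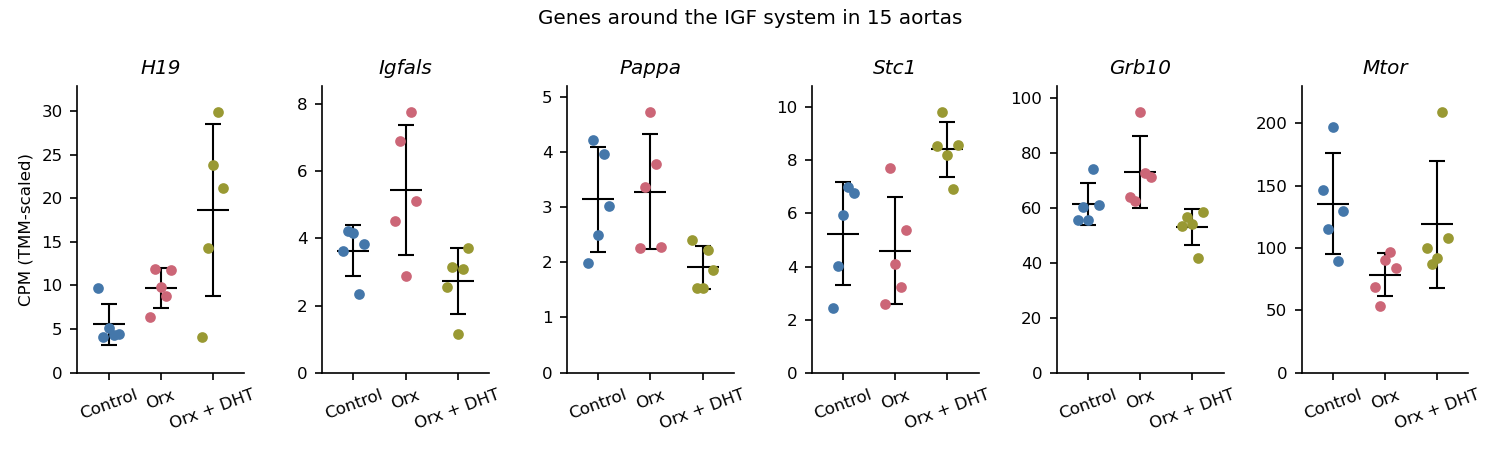
CPM (y axis, linear, from 0) of 6 genes around the IGF system in control, orchiectomized (Orx) and DHT-treated orchiectomized (Orx + DHT) mice; points are the 5 aortas of a group in replicate order and bars are mean ± SD. The 5 DHT-treated values of Grb10 lie under all 5 orchiectomized values, and H19 reaches 29.9 CPM with DHT but is at 4.10 CPM in 1 aorta of that group.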

How the data were processed

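Poly(A) RNA of whole aortas cleaned in RNAlater was sequenced from 15 mice, 5 per group. The authors deposited 1 file of raw read counts per gene symbol and library. The labels list STAR, Cufflinks and DESeq2 without versions, and mm10. The program that counted, the annotation and the use of strand are not given in the sources used here. Rows for reads on no feature (6.26 to 14.4%) or on several (1.34 to 1.97%) were left out.

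Counts were tested with edgeR 4.0.16 (R 4.3.3): filterByExpr (minimum count 10, minimum total count 15), TMM, and quasi-likelihood tests with the 3 groups in 1 model, and P values were adjusted by Benjamini-Hochberg over 14121 genes. CPM are TMM-scaled. RPKM used merged GENCODE M21 exons. The steps were tested on simulated data. Alternatives were DESeq2 1.42.0, limma 3.58.1, other filters, scaling, samples and a replicate block. Labels do not say more of how mice or libraries were handled, so P values measure the spread between these aortas. Named were the 10 members, pathway genes with P under 0.01 and the 3 genes most like each called member, of which 1 result is not reported here. Members, lists and the pathway were chosen with earlier results of these data known. No 2 libraries were alike within counting noise.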

Additional observations from a re-analysis of the deposited data

Results flagged for a closer look

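2 of the 30 groups of 5 values (10 genes in 3 groups) held a value far from the other 4 by Dixon's test, where chance gives about 1 in 20. Orchiectomized replicate 2 had 98.8 CPM of Igfbp3 beside 17.4 to 26.7 CPM in the other orchiectomized aortas. Orchiectomized replicate 3 had 180 CPM of Igf2r beside 127 to 138 CPM in the other orchiectomized aortas, and 180 CPM was also the highest of all 15 libraries. Without that library the log2 fold change of Igf2r after orchiectomy moved from -0.11 to -0.24 (edgeR adjusted P = 0.303). With DHT against orchiectomy it moved from 0.078 to 0.21 (edgeR adjusted P = 0.209).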

How the results depend on the processing

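At an unadjusted P under 0.01, the 10 members gave 1 call with DHT against orchiectomy, 3 with DESeq2 (Igfbp2, Igfbp3, Igfbp5) and 0 with RLE size factors, with all genes of at least 1 count, with only the 2 groups compared or with an adjusted P under 0.05, and 0 to 2 with 1 library left out. The fits with 1 library left out used edgeR only. With DHT against control the 1 call became 0 under the adjusted P and was 0 to 1 with 1 library left out. The test across the 3 groups gave 0, and 0 to 1 with 1 library left out. The cause was not tested.

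After orchiectomy the 1 pathway call became 4 with DESeq2, 2 with RLE size factors, all genes, 2 groups, the replicate block or limma, 0 after adjustment, and 0 to 3 with 1 library left out. With DHT against orchiectomy the 2 pathway calls became 3 with DESeq2, RLE, all genes or the replicate block, 1 with at least 10 counts in every library, 4 with limma, 0 after adjustment, and 0 to 5 with 1 library left out. With DHT against control the 1 pathway call became 2 with only 2 groups, 4 with limma, 0 after adjustment, and 1 to 2 with 1 library left out.

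Directions turned only where the log2 fold change was small. After orchiectomy Igf2 (0.0019) became -0.021 with DESeq2, -0.022 with RLE, -0.023 with 2 groups, -0.045 with all genes, -0.0033 with at least 10 counts in every library, -0.014 with the replicate block and -0.13 with limma. Igfbp6 (0.042) became -0.010 with all genes, -0.014 with the replicate block and -0.057 with limma, and Igf1r (-0.079) became 0.0022 with limma. With DHT against orchiectomy limma gave Igf1r -0.045, Igfbp6 0.14 and Igfbp7 -0.052, and with DHT against control Igf1 0.089 and Igfbp6 0.087.

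With 1 library left out, the log2 fold change after orchiectomy ran from -0.094 to 0.058 for Igf2, -0.19 to 0.11 for Igfbp6, -0.28 to 0.045 for Igfbp5, -0.087 to 0.17 for Igfbp7 and -0.25 to 0.027 for Igf1r. With DHT against orchiectomy it ran from -0.068 to 0.21 for Igf1r, -0.29 to 0.13 for Igfbp6, -0.023 to 0.23 for Igfbp7 and -0.0052 to 0.15 for Igf2. With DHT against control it ran from -0.13 to 0.037 for Igf1r, -0.080 to 0.016 for Igf2r, -0.25 to 0.099 for Igf1, -0.016 to 0.12 for Igf2 and -0.25 to 0.039 for Igfbp6.

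Mice with the same number did not deviate together consistently (r from -0.440 to 0.505, over 0.1 in 5 of 15 pairs). The highest r were those of orchiectomized and DHT-treated replicates 4 (0.505) and 5 (0.484). The replicate block left the member calls at 0, 1 and 1. Igfbp2, Igfbp3, Igfbp4 and Igfbp5 were lower with DHT against orchiectomy under every alternative run. Standard errors with DHT against orchiectomy ran from 0.11 (Igf2r) to 0.45 (Igfbp3) on the log2 scale, which limits the size of change that 5 mice per group could show.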
